A study of Mus musculus with 7 samples.

Results

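The genes examined here encode the ATG8 proteins of the mouse (Gabarap, Gabarapl1, Gabarapl2, Map1lc3a and Map1lc3b) together with proteins that mark mitochondria and other cargo for autophagy (Sqstm1, Bnip3, Bnip3l, Fundc1 and Pink1). They were chosen by name, with earlier results of these data known. Every non-control probe whose accession belongs to them was taken, which gave 10 genes with 16 probes among 23678 genes tested and 56605 non-control probes. Of the 23678, 14720 had a gene symbol, and each accession without one was counted as a gene of its own. Expression was measured in heart apex of male C57Bl/6 mice aged 3 months, with 1 array for each mouse. In 3 mice, called DKO here, both Akt1 (exons 6 and 7) and Akt2 (exons 5 and 6) were homozygously floxed and a heterozygous MHC-mercremer transgene was present. MHC-mercremer is a Cre recombinase that becomes active on tamoxifen binding and is driven by the promoter of alpha myosin heavy chain, so that recombination is directed to cardiomyocytes. The 4 control mice carried heterozygous MHC-mercremer and no floxed Akt allele. Hydroxytamoxifen, which starts recombination, was given to the mice of both groups at 500 µg daily over 5 days, with tissue taken 10 days after induction. Transgene and drug were thus shared by both groups, although the sample titles call all 7 hearts untreated.

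ATG8 proteins are ubiquitin-like proteins that are joined to a lipid of the growing autophagosome membrane, where they hold cargo receptors through a short motif of the receptor. SQSTM1, also called p62, carries ubiquitinated cargo, whereas BNIP3, BNIP3L and FUNDC1 sit in the outer mitochondrial membrane and bind ATG8 proteins directly. PINK1 is a kinase that accumulates on damaged mitochondria and activates the ubiquitin ligase parkin. Akt phosphorylates FoxO transcription factors and keeps them out of the nucleus, and in mouse skeletal muscle FoxO3 is known to raise transcripts of several of these genes. The comparison of DKO with control hearts asks how their transcripts differ once recombination of the floxed Akt1 and Akt2 alleles has been induced in cardiomyocytes.

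Because several of these genes rose together in DKO hearts, the promoter windows of the 4 that passed the test are shown, with that of Gabarapl2 as a relative of Gabarapl1 that did not pass. Each window runs from 250 bases before to 50 bases after the annotated start, 5′ to 3′ along the gene, from RefSeq on GRCm38.p6. Their places are chr6:129532942-129533241, plus strand for Gabarapl1, chr8:111940453-111940752, plus strand for Gabarapl2, chr7:138909457-138909756, minus strand for Bnip3, chr11:50210771-50211070, minus strand for Sqstm1 and chr4:138326247-138326546, minus strand for Pink1. Capitals mark matches to any of the motifs named after the sequences.
Gabarapl1: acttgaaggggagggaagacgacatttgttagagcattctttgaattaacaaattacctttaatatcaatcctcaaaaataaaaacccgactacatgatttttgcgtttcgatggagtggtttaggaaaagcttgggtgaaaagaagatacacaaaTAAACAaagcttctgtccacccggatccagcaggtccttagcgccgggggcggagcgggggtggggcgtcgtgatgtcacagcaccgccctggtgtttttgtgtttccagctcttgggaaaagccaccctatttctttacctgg
Gabarapl2: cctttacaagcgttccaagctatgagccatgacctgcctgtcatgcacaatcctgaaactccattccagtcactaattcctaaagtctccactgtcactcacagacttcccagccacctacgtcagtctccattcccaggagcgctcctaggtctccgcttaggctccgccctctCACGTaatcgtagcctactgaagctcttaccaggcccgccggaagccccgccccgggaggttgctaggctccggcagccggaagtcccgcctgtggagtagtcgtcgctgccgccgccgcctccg
Bnip3: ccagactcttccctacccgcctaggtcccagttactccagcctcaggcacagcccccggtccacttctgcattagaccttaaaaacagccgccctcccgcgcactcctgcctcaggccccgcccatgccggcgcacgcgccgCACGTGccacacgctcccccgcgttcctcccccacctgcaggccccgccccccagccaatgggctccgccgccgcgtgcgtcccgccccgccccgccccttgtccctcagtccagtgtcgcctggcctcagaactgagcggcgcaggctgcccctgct
Sqstm1: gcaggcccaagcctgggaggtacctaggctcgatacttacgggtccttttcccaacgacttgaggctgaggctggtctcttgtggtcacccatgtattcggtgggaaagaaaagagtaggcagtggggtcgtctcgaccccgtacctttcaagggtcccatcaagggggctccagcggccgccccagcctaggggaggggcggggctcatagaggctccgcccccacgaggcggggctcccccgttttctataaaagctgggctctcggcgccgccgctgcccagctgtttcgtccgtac
Pink1: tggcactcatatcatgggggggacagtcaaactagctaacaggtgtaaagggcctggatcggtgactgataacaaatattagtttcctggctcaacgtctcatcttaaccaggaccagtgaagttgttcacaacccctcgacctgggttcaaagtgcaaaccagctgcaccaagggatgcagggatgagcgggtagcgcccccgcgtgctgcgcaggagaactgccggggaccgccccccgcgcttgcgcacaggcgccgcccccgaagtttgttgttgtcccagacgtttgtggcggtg
Windows were found for 8 of the 10 genes, and each motif was searched on both strands. The FoxO site was searched only as the letters GTAAACA, which were in 0 of the 8 windows and in 3.65% of all 32851 promoter windows. Its shorter forkhead core TAAACA, a motif added after the windows had been read, was in the Gabarapl1 window, from -94 to -89 relative to the start, and in 13.4% of all windows. The E-box CACGTG was in the Bnip3 window, from -108 to -103, and in 7.15% of all windows. The core ACGTG of sites bound by hypoxia-inducible factors, which lies within that E-box on either strand, was in the windows of Bnip3, Gabarapl2 and Gabarap and in 19.6% of all windows. The antioxidant element TGACNNNGC was in the Map1lc3b window and in 12.4% of all windows. A match describes these letters and does not show binding.

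Values are log2 of the scanner's background-subtracted signal after each array was set to a common 75th percentile, and a difference of 1 on this scale is a doubling of signal. Signals of different probes are not comparable as levels. Genes were tested with limma on their brightest probe, and a gene is said to rise or fall where its two-sided p, adjusted by Benjamini-Hochberg over all genes, is below 0.05. On each array 53.0% to 57.6% of non-control spots were well above background, and 0 were saturated. The labels were checked on Akt2, whose brightest probe gave 11.64 ± 0.03 in DKO hearts (SD, n = 3) and 13.69 ± 0.07 in control hearts (SD, n = 4) and so fell by 2.05 on the log2 scale (limma, adjusted p = 0.000203 over probes). The dimmer Akt2 probes fell unequally, with differences of -2.29 and -0.68 (limma, adjusted p = 0.000295 and 0.0335 over probes). The brightest Akt1 probe gave 14.65 ± 0.04 in DKO and 14.48 ± 0.06 in control hearts (limma, adjusted p = 0.199 over probes), and the dimmer was higher by 0.47 (adjusted p = 0.139), so Akt1 showed no fall on either probe. The place of the probes against the deleted exons was not analysed here, and one that lies elsewhere in the transcript says nothing about recombination. In whole heart tissue fewer cells of a type and less RNA per cell cannot be told apart.

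Of the 10 genes, Bnip3, Gabarapl1, Sqstm1 and Pink1 rose in DKO hearts and 0 fell, where 4.7% of all genes tested passed, 2.41% rising and 2.29% falling. At an unadjusted p below 0.05 in limma, 7 of the 10 were higher and 0 lower, where 11.6% of all genes were higher at that level. All 10 were well above background on every array with each of their 16 probes, so the filter on dim probes removed none of them. The median log2 difference of the 10 genes was 0.32, against -0.02 over all genes, of which 46.9% were higher in DKO. The ATG8 genes had a median of 0.27 with 1 of 5 rising, and the receptor genes with Pink1 a median of 0.36 with 3 of 5 rising. In 7 of the 10 genes each DKO value lay above each control value, as it did in 13.2% of all genes, and 25.7% of all genes showed no overlap in one direction or the other. As the 10 genes were chosen with earlier results of these data known, the shares over all genes are a description and no test. Relative to the control mean, the median over the 10 genes was 0.23, 0.37 and 0.37 in DKO replicates 1, 2 and 3, against -0.06, 0.07, 0.01 and -0.02 in control replicates 1 to 4, without overlap.

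**Figure D1:**
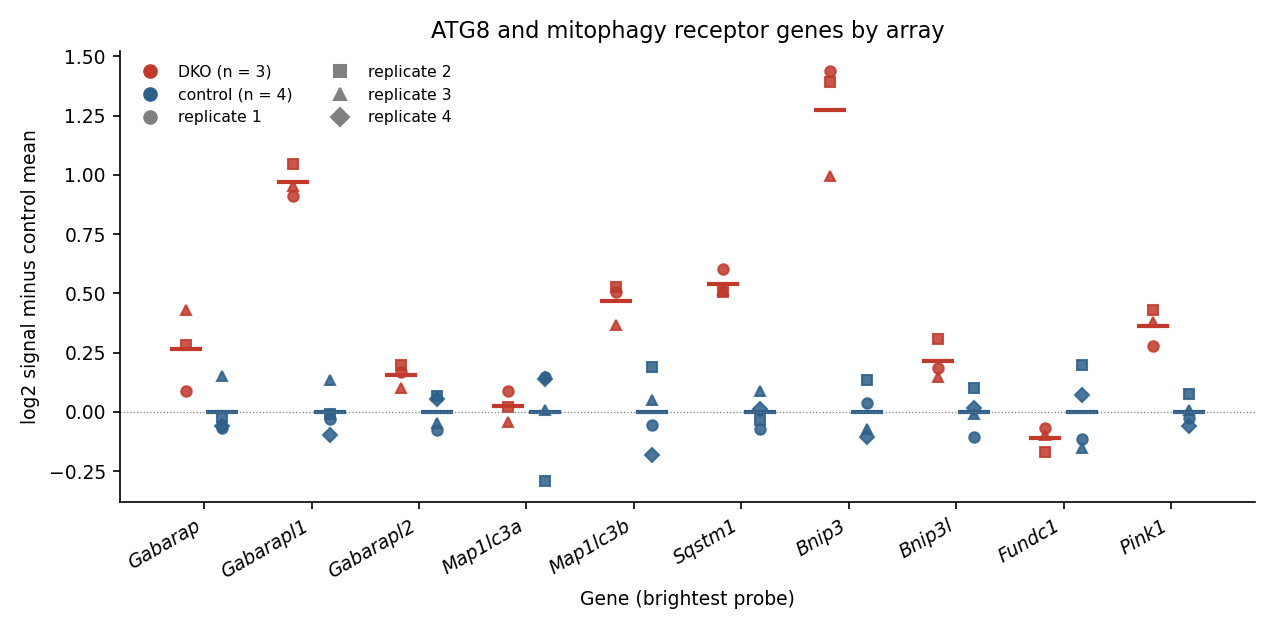
Log2 signal of the brightest probe of each gene minus its control mean, for the 3 DKO arrays (red, left) and the 4 control arrays (blue, right); marker shapes give the replicate number and bars the group means. Bnip3 and Gabarapl1 stand furthest above the controls, with differences of 1.27 and 0.97, while the groups overlap for Gabarap, Map1lc3a and Fundc1.

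Markers of the cells that heart tissue holds were read beside these genes, and 25.5% of all genes had an unadjusted p below 0.05 in limma. Summed over the markers of a cell type, in units of 1000, the signal of 8 endothelial markers was 67.2 to 67.5 in DKO and 55.4 to 66.2 in control hearts, with 8 of 8 higher and 0 called (2 below that unadjusted p). Egfl7, the brightest endothelial marker, makes the largest part of that sum. Its groups overlapped, with a difference of 0.05 ± 0.13 (SE; limma, adjusted p = 0.819), against a median of 0.20 over the endothelial markers. Of 8 mural markers 6 were higher and 1 called (6 unadjusted, Acta2 among them being lower). The call was on Myh11, the smooth muscle myosin, which rose by 0.63 ± 0.14 (SE; limma, adjusted p = 0.0487). That call was lost with any 1 array left out (limma, adjusted p up to 0.142 without DKO replicate 1). The summed mural signal was 69.9 to 79.4 in DKO and 70.1 to 83.1 in control hearts. Acta2, the brightest mural marker, makes the largest part of that sum. Its difference was -0.41 ± 0.14 (SE; limma, adjusted p = 0.128), against a median of 0.27 over the mural markers. The 8 fibroblast markers, of which 7 were higher and 0 called (2 unadjusted), summed to 113 to 134 in DKO and 108 to 114 in control hearts. Of 10 cardiomyocyte markers 3 were higher and 0 called (4 unadjusted), and they summed to 1828 to 2117 in DKO and 1893 to 1977 in control hearts. Of 8 leukocyte markers 5 were higher and 0 called (0 unadjusted), with a median difference of 0.04. They summed to 29.8 to 36.0 in DKO and 32.5 to 44.3 in control hearts. Itgam, the brightest leukocyte marker, makes the largest part of that sum, with a difference of -0.38 ± 0.21 (SE; limma, adjusted p = 0.304). Of the markers of other tissues, 2 of 6 adipocyte, 3 of 5 red blood cell and 4 of 7 skeletal muscle genes were tested and 0 called (1, 0 and 0 unadjusted). The 2 adipocyte markers tested, Fabp4 and Lep, summed to 53.6 to 57.6 in DKO and 40.3 to 53.2 in control hearts, without overlap. Nearly all of that sum is Fabp4, a fatty acid carrier that endothelial cells also make, with a difference of 0.30 ± 0.11 (SE; limma, adjusted p = 0.138), while Adipoq, Plin1, Retn and Cidec did not pass the filter. The part of these cells in the results was not tested.

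Gabarapl1 showed the clearest change among the ATG8 genes. Its brightest probe read 15.57, 15.71 and 15.62 in the 3 DKO hearts, against 14.64, 14.66, 14.80 and 14.57 in the 4 control hearts. The DKO values lay close together and well clear of the highest control, replicate 3. The rise was 0.97 ± 0.08 on the log2 scale (SE), or 1.96-fold (limma, adjusted p = 0.00519). The dimmer probe of Gabarapl1 read 11.64, 11.71 and 11.47 in DKO hearts, against 10.42, 10.59, 10.46 and 10.50 in control hearts. Both probes thus separated the groups, and the dimmer rose 2.17-fold (limma, adjusted p = 0.00374 over probes). The call on the brightest probe held with each of the 7 arrays left out in turn (adjusted p from 0.0142 to 0.0297).

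Map1lc3b encodes LC3B, the ATG8 protein most used as a marker of autophagosomes, and its probes fell on either side of the threshold. The brighter read 15.45, 15.47 and 15.31 in DKO hearts, against 14.89, 15.13, 15.00 and 14.76 in control hearts. Its groups did not overlap, but the controls were spread over a wider range than the DKO hearts, and the difference of 0.47 ± 0.11 (SE) did not pass (limma, adjusted p = 0.0551). The dimmer read 13.85, 13.92 and 13.83 in DKO hearts, against 13.34, 13.45, 13.36 and 13.39 in control hearts. Both groups were tight on this probe, which rose by 0.48 ± 0.07 (limma, adjusted p = 0.0179 over probes). The 2 probes therefore gave nearly the same size of difference, 1.38-fold and 1.39-fold, with unequal spread. The brighter passed without control replicate 2 (limma, adjusted p = 0.0443). The dimmer passed without control replicate 1 or 2 and missed with any other array left out (limma, adjusted p from 0.0505 to 0.0697 over probes).

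The remaining ATG8 genes did not pass the test. Gabarap, a relative of Gabarapl1, read 14.39, 14.58 and 14.73 in DKO hearts, against 14.23, 14.27, 14.45 and 14.24 in control hearts. DKO replicate 1 lay below control replicate 3, so the groups overlapped, and the difference was 0.27 ± 0.11 (SE; 95% interval 0.02 to 0.52; limma, adjusted p = 0.171). Gabarapl2, also called GATE-16, read 13.66, 13.69 and 13.59 in DKO hearts, against 13.42, 13.56, 13.45 and 13.54 in control hearts on its brighter probe. These values did not overlap but differed by only 0.15 ± 0.07 (95% interval -0.02 to 0.33; limma, adjusted p = 0.233), and on the dimmer probe, with a difference of 0.17, control replicate 1 lay among the DKO hearts. Map1lc3a, which encodes LC3A, read 14.11, 14.05 and 13.98 in DKO hearts, against 14.17, 13.73, 14.03 and 14.16 in control hearts. The DKO hearts lay inside the control range, which control replicate 2 widened, and the difference of 0.02 ± 0.12 (95% interval -0.26 to 0.31; limma, adjusted p = 0.920) changed sign with quantile normalization and with the authors' values.

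**Figure D2:**
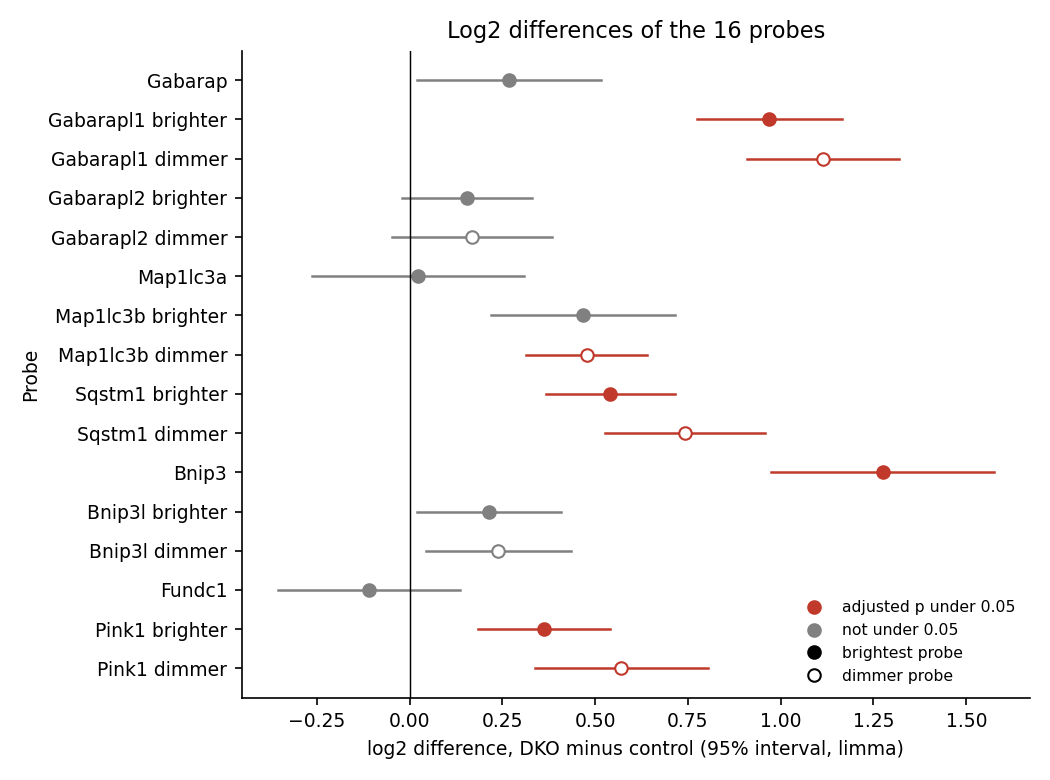
Log2 difference, DKO minus control, of each of the 16 probes with its 95% interval from the limma fit over all probes; filled points are the brightest probe of a gene, open points the dimmer, and red marks an adjusted p under 0.05 over probes. The 2 probes of a gene point the same way in all 6 genes that have 2, and 8 of the 16 probes rose.

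At the level of probes, 8 of the 16 rose and 0 fell, where 2.33% of all 30466 kept probes rose and 4.4% passed in either direction. In 12 of the 16 each DKO value exceeded each control value, as in 13.5% of all kept probes. The dimmer probe gave the larger difference in each of the 6 genes with 2 probes. The gap was 0.01 for Map1lc3b and Gabarapl2, 0.03 for Bnip3l, 0.15 for Gabarapl1, 0.20 for Sqstm1 and 0.21 for Pink1. For the small gaps the order depended on the setting. Map1lc3b gave 0.42 (brighter) and 0.41 (dimmer) with quantile normalization. Gabarapl2 gave 0.17 and 0.14 without control replicate 4, and Bnip3l 0.25 and 0.23 without DKO replicate 3. Which transcript forms or pseudogene copies each probe takes up was not analysed here.

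Among the receptors, Bnip3 had the largest difference of the 10 genes. Its single probe read 16.14, 16.09 and 15.70 in DKO hearts, against 14.74, 14.84, 14.63 and 14.60 in control hearts. DKO replicate 3 was the lowest of its group and still clear of the highest control. The rise was 1.27 ± 0.13 (SE), or 2.42-fold (limma, adjusted p = 0.00778), and the call held with each array left out in turn (adjusted p from 0.0127 to 0.0376). Bnip3 lies on chromosome 7 with Akt2, with 804 tested genes between them in the RefSeq order of GRCm38.p6, and the other 9 genes lie on chromosomes without Akt1 or Akt2.

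Bnip3l, also called Nix, the close relative of Bnip3 that clears mitochondria from maturing red cells, gave a smaller difference. Its brighter probe read 12.58, 12.70 and 12.54 in DKO hearts, against 12.28, 12.49, 12.38 and 12.41 in control hearts. The groups did not overlap on this probe or on the dimmer, yet the gap between them was narrow. The difference was 0.21 ± 0.08 (SE; 95% interval 0.02 to 0.41; limma, adjusted p = 0.162) and on the dimmer probe 0.24 ± 0.08 (limma, adjusted p = 0.139 over probes). Fundc1, a mitophagy receptor used in hypoxia, read 10.97, 10.87 and 10.94 in DKO hearts, against 10.92, 11.24, 10.89 and 11.11 in control hearts. It was the single gene of the 10 with a negative difference, -0.11 ± 0.10 (95% interval -0.35 to 0.13; limma, adjusted p = 0.540), and its groups overlapped.

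Sqstm1 rose on both of its probes. The brighter read 15.71, 15.62 and 15.62 in DKO hearts, against 15.04, 15.08, 15.20 and 15.12 in control hearts. The DKO hearts were nearly alike and lay above all controls, by 0.54 ± 0.07 (SE), or 1.46-fold (limma, adjusted p = 0.0150). The dimmer read 12.51, 12.46 and 12.44 in DKO hearts, against 11.63, 11.60, 11.85 and 11.83 in control hearts. On this probe control replicates 1 and 2 lay below 3 and 4, and the rise was 1.67-fold (limma, adjusted p = 0.0125 over probes). The call on the brighter probe was lost without control replicate 4, DKO replicate 1 or DKO replicate 2 (limma, adjusted p = 0.0588, 0.0651 and 0.0525), and on the dimmer without DKO replicate 1 (limma, adjusted p = 0.0572 over probes).

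Pink1 had the smallest difference of the genes that rose. Its brighter probe read 15.41, 15.56 and 15.51 in DKO hearts, against 15.10, 15.21, 15.14 and 15.07 in control hearts. The groups did not overlap and differed by 0.36 ± 0.07 (SE), or 1.29-fold (limma, adjusted p = 0.0436). The dimmer probe read 12.03, 12.22 and 12.06 in DKO hearts, against 11.68, 11.51, 11.37 and 11.59 in control hearts, with a rise of 1.48-fold (limma, adjusted p = 0.0292 over probes). DKO replicate 2 was the highest heart on both probes. The call on the brighter probe was lost with any 1 of the 7 arrays left out (limma, adjusted p from 0.0531 without control replicate 2 to 0.132 without DKO replicate 2). It was also lost with quantile normalization, the authors' values, normexp with either scaling and no filter (limma, adjusted p = 0.0650, 0.0658, 0.0977, 0.152 and 0.190). On the dimmer it held without control replicate 1 and was lost with any other array left out (limma, adjusted p from 0.0541 to 0.0941 over probes).

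The arrays lay in 2 rows of the slide, per the file headers, which the groups shared unevenly. Row 1 held DKO replicate 3 with control replicates 1, 3 and 4, and row 2 held DKO replicates 1 and 2 with control replicate 2. Within row 1 and row 2 the Bnip3 difference was 1.04 and 1.28, and that of Gabarapl1 was 0.95 and 0.99. For Sqstm1 the within-row differences were 0.50 and 0.59, and for Pink1 0.41 and 0.28. Each DKO value of these 4 genes lay above each control value, so both rows had to give a positive difference. The sign by row is therefore no separate support. With the row as a block in limma, Bnip3 and Gabarapl1 kept their calls (adjusted p = 0.0186 and 0.0249), whereas Sqstm1 and Pink1 missed (adjusted p = 0.0517 and 0.109). These are calls on the brightest probe. In the same fit over probes, the dimmer Sqstm1 probe kept its call and the dimmer Pink1 probe missed (limma, adjusted p = 0.0427 and 0.0834). Map1lc3b differed by 0.43 and 0.33 within the rows, Gabarap by 0.42 and 0.21, Gabarapl2 by 0.12 and 0.12, and Bnip3l by 0.18 and 0.15. Map1lc3a gave -0.14 in row 1 and 0.35 in row 2, and Fundc1 -0.03 and -0.31.

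**Figure D3:**
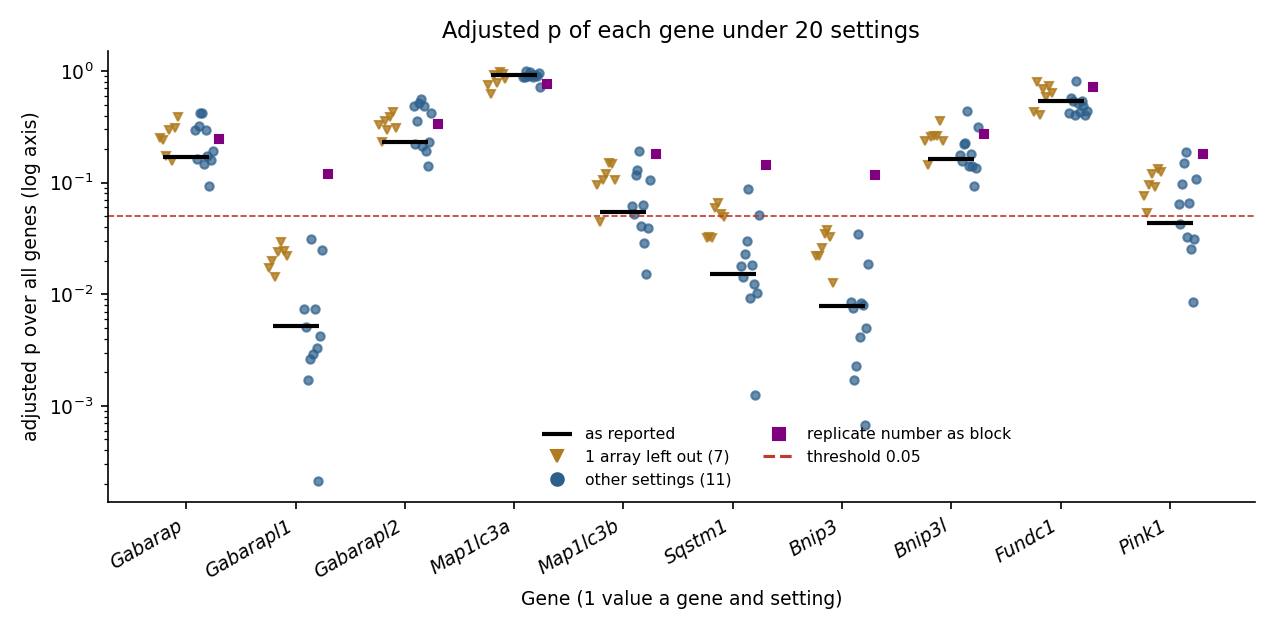
Adjusted p of each gene over all genes on a log axis, as reported (black bar), with 1 array left out (7 triangles), under 11 other settings (circles) and with the replicate number as a block (square); the dashed line is 0.05. Bnip3 and Gabarapl1 stay below the line except with the replicate number as a block (adjusted p = 0.117 and 0.120), while Pink1 lies above it with each array left out.

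Close relatives were set against each other within arrays, as the difference between their log2 signals, in 4 pairs. The difference between Bnip3 and Bnip3l was larger by 1.06 in DKO than in control hearts, between Gabarapl1 and Gabarapl2 by 0.81 and between Gabarapl1 and Gabarap by 0.70. In these 3 pairs each DKO heart lay above each control heart, and each gave p = 0.0571 in an exact two-sided permutation test, the smallest p that 3 against 4 mice allow (0.0762 adjusted over the 4 pairs). For Map1lc3b and Map1lc3a the shift was 0.44, but the groups overlapped because control replicate 2 reached the DKO range (exact permutation p = 0.171, also 0.171 adjusted). This exact test cannot pass 0.05 with 3 against 4 mice.

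Other genes of the pathway, taken from lists drawn up by function with earlier results of these data known, gave the setting for these changes. Of 13 genes that process ATG8 proteins and attach them to membranes, limma called 0, with 2 under an unadjusted p of 0.05 (25.5% of all genes), and their median log2 difference was -0.01. The smallest p among them belonged to Wipi2, a phosphoinositide-binding protein that recruits the conjugation complex, at 0.41 ± 0.10 (SE; limma, adjusted p = 0.0602), and to Atg7, the activating enzyme, at 0.18 ± 0.07 (limma, adjusted p = 0.150). Of 24 genes of the PINK1 and parkin pathway and its regulators, limma called 0, with 6 under an unadjusted p of 0.05 (25.5% of all genes), with a median of 0.01. The smallest p belonged to the mitochondrial transport GTPase Rhot1, at -0.31 ± 0.07 (limma, adjusted p = 0.0625), and the fusion GTPase Mfn1, at 0.28 ± 0.07 (limma, adjusted p = 0.0797). Of 9 kinases, phosphatases and partners that act on the receptors, limma called 0, with 2 under an unadjusted p of 0.05 (25.5% of all genes), with a median of 0.06. Here the autophagy-initiating kinase Ulk1 gave 0.36 ± 0.09 (limma, adjusted p = 0.0667) and the casein kinase 2 subunit Csnk2a1 gave -0.22 ± 0.08 (limma, adjusted p = 0.152).

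Of 19 other receptors of selective autophagy, 3 rose and 0 fell, with a median of 0.05, where 2.41% of all genes rose. In limma 7 of the 19 had an unadjusted p below 0.05 in either direction (25.5% of all genes). Optn, a ubiquitin-binding receptor that acts in PINK1 and parkin mitophagy, read 12.67, 12.75 and 12.42 in DKO hearts, against 11.95, 12.13, 12.11 and 11.93 in control hearts, a rise of 1.50-fold (limma, adjusted p = 0.0321). Calcoco1 read 9.77, 9.80 and 9.90 in DKO hearts, against 9.35, 9.33, 9.13 and 9.25 in control hearts, a rise of 1.47-fold (limma, adjusted p = 0.0192). Ccpg1, a receptor for autophagy of the endoplasmic reticulum, rose 1.30-fold, at 11.51 ± 0.06 in DKO and 11.13 ± 0.07 in control hearts (SD, n = 3 and 4; limma, adjusted p = 0.0368). In these 3 genes each DKO value lay above each control value, as it did in 13.2% of all genes. Retreg1, a reticulum receptor named after its values were seen, had a larger difference, with 13.90, 13.84 and 14.04 in DKO hearts, against 11.83, 13.38, 13.55 and 13.20 in control hearts. Control replicate 1 stood far below the others, and the difference of 0.94 ± 0.40 (SE) did not pass (limma, adjusted p = 0.194). With 1 array left out, Calcoco1 passed in 3 of 7 fits, Optn in 2 and Ccpg1 in 0. The calls were lost for Calcoco1 without control replicate 4 or any DKO replicate, and for Optn without control replicates 1, 3 or 4 or DKO replicates 1 or 2 (limma, adjusted p up to 0.0663 for Calcoco1 without DKO replicate 2, 0.106 for Optn without DKO replicate 1 and 0.115 for Ccpg1 without DKO replicate 2).

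**Figure D4:**
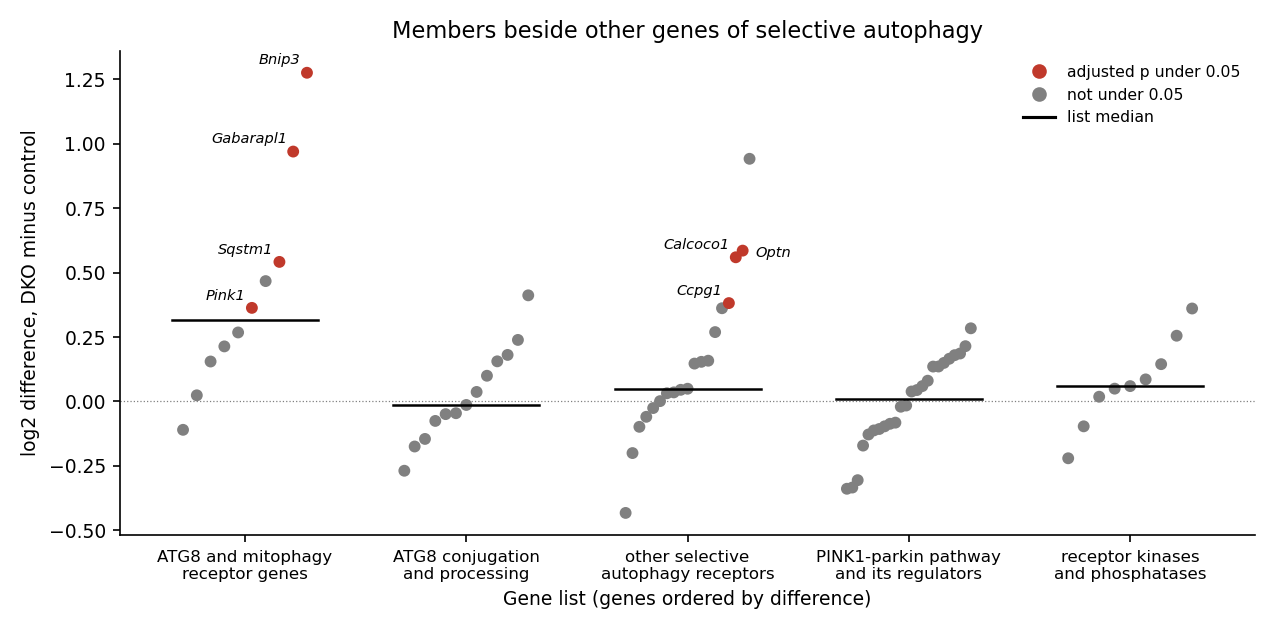
Log2 difference, DKO minus control, of the 10 genes (left) and of 4 other lists of selective autophagy genes, 1 point a gene in order of size, with red for an adjusted p under 0.05 and a bar at each list's median. The medians of the other lists lie between -0.01 and 0.06, and that of the 10 genes at 0.32. The 10 genes and the lists were chosen with earlier results of these data known.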

How the data were processed

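RNA of 7 heart apices (100 ng each) was labelled with Cy3 and put on Agilent arrays of 1 colour (design 074809), all on 1 slide and in 1 scan. Per the file headers, the authors quantified the spots with Feature Extraction 12.0.3.1 and the design refers to mm9. Deposited for each array were intensities: a processed signal, from which background had been subtracted, and median spot and background signals. The authors' deposited table holds log2 values of 56745 probes, with a median of 0 in each column, and its making is not stated in the labels.

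Control spots and outlier flags were dropped. From log2 of the processed signal each array's 75th percentile was taken off, and 9.14, their mean over the arrays, was restored. Accessions were matched to RefSeq, which named 32994 of 56605 probes, the members' among them. A filter kept 30466 probes well above background on at least 3 arrays, and the brightest stood for each of 23678 genes. An unmatched accession counted as a gene of its own, and 14720 of the 23678 had a symbol. The shares over all genes and the adjusted p rest on all 23678. Genes and probes were fitted with limma 3.58.1 (R 4.3.3, group as the single term, 5 residual degrees of freedom, Benjamini-Hochberg), after the code had been tested on simulated data. The members and lists were chosen with earlier results of these data known. Named genes are the 10 members, Akt1, Akt2 and, of each autophagy list, the genes that passed or otherwise the 2 with the smallest p. Of the marker lists, given as sums, Myh11 was named because it passed. Retreg1, Egfl7, Acta2, Itgam and the adipocyte markers were named after their values were seen.

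Each array is 1 mouse, and 7 arrays limit the precision. Alternatives were quantile, median and normexp processing (offset 50, on the median signal, the files having no mean signal), other filters, the authors' values, averaged probes, trended and robust variances, array weights, a block for replicate number or for slide row, and each array left out.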

Additional observations from a re-analysis of the deposited data

How the results depend on the processing

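Bnip3, Gabarapl1, Sqstm1, Pink1, Optn, Calcoco1, Ccpg1 and Myh11 kept a positive difference under each of the 19 alternatives run. Many of the alternatives could not have changed that sign. As the groups of these genes did not overlap, leaving out 1 array had to keep it. No filter, the filter on all 7 arrays and trended and robust variances left the differences of the 10 genes unchanged and altered only p. Of the 10 genes only Map1lc3a changed sign. Its difference was -0.0394 with quantile normalization, -0.0574 with normexp and quantile normalization, -0.0399 with the authors' values, and ran from -0.0735 to 0.0725 with 1 array left out. The cause was not tested. The number of the 10 genes that rose was 4 as reported, 5 with a filter on all 7 arrays, averaged probes, trended and robust variances or array weights, where Map1lc3b passed too, 3 with quantile normalization, either normexp setting or the authors' values, 2 without a filter, 2 with the slide row as a block, and 2 to 4 with 1 array left out, being 2 without control replicate 4, DKO replicate 1 or DKO replicate 2. Their median difference of 0.32 became 0.24 with normexp and quantile normalization and ran from 0.29 to 0.38 with 1 array left out (0.38 without DKO replicate 1). With the replicate number as a block, the numbers being no pairing in the labels, 0 of the 10 genes, 1 of all genes and 2 of all probes were called. That fit leaves control replicate 4 without weight and 3 degrees of freedom fewer, and gives Bnip3 1.24 (limma, adjusted p = 0.117) and Gabarapl1 0.94 (limma, adjusted p = 0.120). Deviations of same-numbered arrays correlated at 0.129, 0.0069 and 0.0325, and of DKO replicates 1 to 3, 1 correlated best with the control of its own number. Over all genes 1114 were called as reported, and 617 with normexp, 720 with normexp and quantile normalization, 121 without a filter, 2028 with trended and robust variances, 1680 with array weights, 288 with the slide row as a block, and 160 to 1127 with 1 array left out. Over probes the 1339 calls became 773, 139, 2506, 2014 and 321 under normexp, no filter, trended and robust variances, array weights and the slide row, and 218 to 1098 with 1 array left out. The shifts between relatives kept their sign in 15 settings, an alternative added after seeing the data. Among these, median centring, no filter and the filter on all 7 arrays left each shift as reported and could not change it. In the pairs without overlap, leaving out 1 array could not change the sign either. The shifts ran from 0.97 to 1.17 for Bnip3 and Bnip3l and from 0.76 to 0.88 for Gabarapl1 and Gabarapl2. They ran from 0.64 to 0.79 for Gabarapl1 and Gabarap, and from 0.34 to 0.60 for Map1lc3b and Map1lc3a.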
